A study of Homo sapiens with 3 samples.

Results

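The annexins and S100 calcium-binding proteins of HEK293 cells were followed by name through a table of RNA 5′-end counts. Of the 10 genes chosen, which were 7 annexins and 3 S100 genes, 9 had a row among the 17595 endogenous genes of the table. ANXA1, ANXA2, ANXA4, ANXA5, ANXA6, ANXA7, ANXA11, S100A10 and S100A11 had one. S100A6 had none. Each of the 17595 genes had at least 1 count, so a gene without counts and a gene left out look alike. Nothing can therefore be said of the level of S100A6. HEK293 is an established human cell line derived from embryonic kidney, and it was grown in medium with fetal calf serum. The study holds 1 group of 3 libraries of untreated cells. Per the labels, each library came from 1000 lysed cells that had received 20000 spiked control molecules per cell, and a part equal to 100 cells was amplified over 18 cycles. The libraries are named by their column index, 20, 21 and 23, since the labels do not say which replicate each column holds. With a single group no conditions can be compared. Genes were therefore compared with each other inside each library, and each gene from library to library.

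Annexins are proteins that bind acidic phospholipids of membranes when calcium is present, through a repeated core that is much alike in all of them, while their N-terminal tails differ. S100 proteins are small dimeric proteins with EF-hand calcium sites that bind target proteins, the tails of some annexins among them. The best known pair is annexin A2 and S100A10: an S100A10 dimer, which no longer needs calcium, joins a pair of annexin A2 molecules by their tails into a tetramer at the cell membrane. S100A11 binds the tails of annexins A1 and A2 in a like manner when calcium is present, and S100A6 is known as a partner of annexin A11. These proteins are known for roles in membrane traffic, membrane repair and, at the cell surface, plasminogen activation.

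Endogenous counts were 1475769, 1330877 and 1545594 in libraries 20, 21 and 23. Levels are counts per 1000000 of them (CPM), and 1 count equals 0.647 to 0.751 CPM. Each tag marks the 5′ end of an RNA, so levels were compared without division by length, and values per length are given once for comparison. The libraries are bulk samples, in which few cells with much of an RNA and many cells with little of it cannot be told apart. Nothing says that they came from separate cultures, so the spread between these libraries may be technical. The limma p-values below rest on that spread, pooled in part over genes, and the exact binomial p-values cover counting error only. All 7 genes fixed as a HEK293 background averaged at least 10 CPM, against 44.6% of all genes with a row. Their means ran from 21.1 CPM for KRT8 to 340.1 CPM for VIM. Of 9 markers of blood, endothelial, fibroblast and liver cells, 5 had no row and the other 4 averaged between 0.226 and 3.92 CPM.

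ANXA2 and S100A10 were both well expressed, and ANXA2 lay a little below its partner in every library. ANXA2 had 325, 284 and 298 counts in libraries 20, 21 and 23, which are 220.2, 213 and 193 CPM. S100A10, the light chain of the tetramer, had 392, 346 and 403 counts, which are 266, 260.0 and 261 CPM. The highest library of ANXA2 was below the lowest library of S100A10, so the values did not overlap. Means were 209 ± 14.3 CPM for ANXA2 and 262 ± 3.06 CPM for S100A10 (SD, n = 3). The log2 ratio of ANXA2 over S100A10 was -0.27, -0.28 and -0.43 in libraries 20, 21 and 23. It averaged -0.33 ± 0.077 (moderated SE) with a limma adjusted p of 0.00018, and S100A10 thus had 1.26 times the counts of ANXA2. Leaving out a library gave values from -0.36 to -0.28, and the limma adjusted p was highest, at 0.0096, without library 21. Without a trend of the variance on level the limma adjusted p was 0.040. Per 1000 bases of the longest annotated transcript, 3528 bases for ANXA2 and 1202 for S100A10, the log2 ratio was -1.88. How far the RNAs differ in capture was not tested.

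The start regions of these genes are shown because 5′-end tags are read from them: the partners ANXA2 and S100A10, then S100A11 as the highest and ANXA1 as the lowest listed gene. Each window runs from 250 bases before to 50 bases after the gene's start, 5′ to 3′ on the gene's strand, from RefSeq on GRCh38.p14, which is not the build the counts were made on. All 9 listed members had at least 1 window in that table. Capitals mark TATAAA, the TATA box, GGGCGG, the GC box, CCAAT, the CCAAT box, and the AP-1 motif, which is TGAGTCA or TGACTCA, all sought on both strands. Neighbouring GGGCGG matches can share a base. The windows are chr15:60397937-60398236 on the minus strand for ANXA2, chr1:151993810-151994109 on the minus strand for S100A10, chr1:152036955-152037254 on the minus strand for S100A11 and chr9:73151615-73151914 on the plus strand for ANXA1.
ANXA2: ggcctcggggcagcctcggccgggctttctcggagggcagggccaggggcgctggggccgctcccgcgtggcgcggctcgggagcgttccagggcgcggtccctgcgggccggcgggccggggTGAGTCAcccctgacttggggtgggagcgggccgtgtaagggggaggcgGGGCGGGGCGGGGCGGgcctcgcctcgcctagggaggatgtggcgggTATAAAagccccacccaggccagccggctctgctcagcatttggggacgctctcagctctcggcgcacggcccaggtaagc
S100A10: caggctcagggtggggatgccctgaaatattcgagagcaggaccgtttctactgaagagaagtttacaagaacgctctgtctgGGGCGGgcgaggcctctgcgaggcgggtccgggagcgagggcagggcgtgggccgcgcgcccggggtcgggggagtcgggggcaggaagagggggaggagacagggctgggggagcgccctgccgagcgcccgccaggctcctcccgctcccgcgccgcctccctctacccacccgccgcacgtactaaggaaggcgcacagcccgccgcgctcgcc
S100A11: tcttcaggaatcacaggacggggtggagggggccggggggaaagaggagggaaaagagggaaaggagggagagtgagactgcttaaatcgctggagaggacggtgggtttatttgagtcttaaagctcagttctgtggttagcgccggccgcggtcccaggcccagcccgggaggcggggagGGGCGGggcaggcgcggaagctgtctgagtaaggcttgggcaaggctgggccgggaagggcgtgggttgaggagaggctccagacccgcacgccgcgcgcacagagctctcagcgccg
ANXA1: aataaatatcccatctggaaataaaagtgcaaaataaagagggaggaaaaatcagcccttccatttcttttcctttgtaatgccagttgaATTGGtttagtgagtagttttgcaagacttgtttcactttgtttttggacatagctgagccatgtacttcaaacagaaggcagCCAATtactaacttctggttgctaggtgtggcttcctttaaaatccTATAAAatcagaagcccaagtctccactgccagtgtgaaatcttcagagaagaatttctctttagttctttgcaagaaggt

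The window of ANXA2 held TATAAA 31 bases before the start, 3 overlapping GGGCGG matches that began 78, 73 and 68 bases before it, and an AP-1 motif at 127 bases. S100A10 and S100A11, both on chromosome 1, each held 1 GGGCGG match, at 167 and at 68 bases before the start, and no TATAAA. The ANXA1 window held TATAAA at 31 bases, like that of ANXA2, and 2 CCAAT matches, but no GGGCGG. Its GC content was 37.7%, against 76.0% for ANXA2, 71.7% for S100A10 and 65.3% for S100A11, and a median of 58.7% over all 35116 windows of the table. Whether GC content goes with level was not tested. ANXA4, the next lowest gene, had windows of 78.0% and 72.0% GC with 6 and 3 GGGCGG matches. The windows of ANXA6 had 66.3% and 56.3% GC with 1 and 0 matches. GC content was 76.3% for ANXA5, 66.0% for ANXA7 and 51.7%, 74.0% and 54.3% for the windows of ANXA11. A window of ANXA11 also held TATAAA, 61 bases before the start, and CCAAT was found in windows of ANXA6, ANXA7 and ANXA11. Over all 35116 windows, TATAAA was found in 11.5%, GGGCGG in 45.0%, CCAAT in 34.6% and the AP-1 motif in 4.95%. A match of letters is a description only and does not show a site in use.

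S100A11 and ANXA5 stood beside the pair at the top of the family. S100A11, which binds annexins A1 and A2 in a calcium-dependent way, had 480, 458 and 484 counts in libraries 20, 21 and 23, which are 325, 344 and 313 CPM. It was the most abundant member in each library and averaged 328 ± 15.6 CPM (SD, n = 3). ANXA5, the annexin used as a probe for phosphatidylserine on dying cells, had 419, 319 and 402 counts, which are 284, 240 and 260.1 CPM. Library 20 was the highest for ANXA5 and library 21 the lowest, and its range took in all 3 values of S100A10. The mean of ANXA5 was 261 ± 22.1 CPM. These 4 genes held 81.9% ± 1.33 of the counts of the 9 listed members.

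Levels of the other annexins were lower and ran down to a few counts per library. ANXA7, or synexin, known for membrane fusion in secretion, had 183, 162 and 182 counts, which are 124, 122 and 118 CPM. ANXA11, which has a long proline-rich tail and tethers RNA granules to lysosomes, had 77, 95 and 114 counts, which are 52.2, 71.4 and 73.8 CPM. Library 20 was the lowest for ANXA11, and libraries 21 and 23 lay close to each other. ANXA6, which carries the annexin core in duplicate, had 32, 23 and 51 counts, which are 21.7, 17.3 and 33.0 CPM, so that library 23 stood highest. ANXA4, an annexin of epithelial cells, had 21, 20 and 23 counts, which are 14.2, 15.0 and 14.9 CPM. ANXA1, the glucocorticoid-induced lipocortin 1, was the lowest at 13, 10 and 13 counts, which are 8.81, 7.51 and 8.41 CPM. ANXA4 overlaps AAK1, a kinase gene on the opposite strand, in GENCODE v29. ANXA4 had 64 pooled counts, against 114 for AAK1, and since the use of strand is not known, the split between both genes is uncertain.

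**Figure D1:**
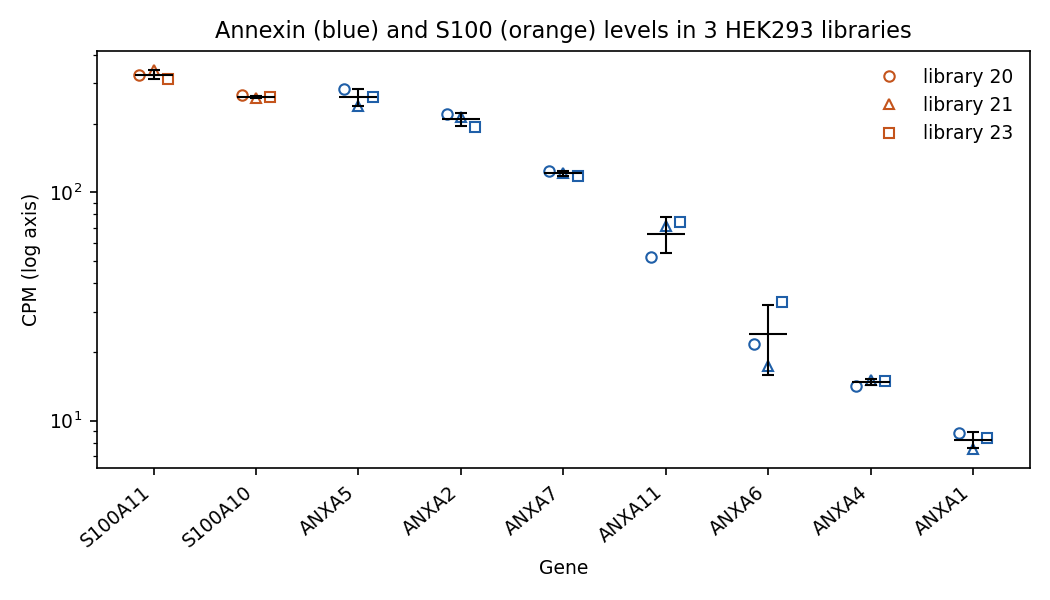
CPM on a log axis for the 9 listed members, with 1 symbol for each library and the mean ± SD over 3 libraries as a black bar. S100A11, S100A10, ANXA5 and ANXA2 averaged between 209 and 328 CPM, and ANXA6, ANXA4 and ANXA1 lay below 40 CPM in each library.

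ANXA2 counts were lower than those of 3 members and higher than those of the other 5. The test was made for ANXA2 over each of 11423 genes with at least 10 pooled counts, with adjustment over all of them. ANXA2 was higher than 91.6% of these genes and lower than 6.53%, so a call against a single gene is the usual outcome and the sizes carry the comparison. Below S100A11 the log2 ratio was -0.56, -0.69 and -0.70 in libraries 20, 21 and 23 (mean -0.65 ± 0.073 SE, limma adjusted p = 7.2e-10). Against ANXA5 it was -0.37, -0.17 and -0.43, with a mean of -0.32 ± 0.079 SE and a limma adjusted p of 0.00031. Without a trend of the variance on level that p was 0.051. ANXA2 exceeded ANXA7 by 0.78 ± 0.092 and ANXA11 by 1.68 ± 0.12 on the log2 scale (limma adjusted p = 1.9e-09 and 2.1e-14). The ratio over ANXA11 ran from 1.38 in library 23 to 2.07 in library 20. Over ANXA6 the log2 ratio was 3.15 ± 0.18, over ANXA4 3.79 ± 0.19 and over ANXA1 4.61 ± 0.25, which is 24.4-fold (limma adjusted p between 1.1e-17 and 4.5e-17). In all 8 comparisons the 3 libraries lay on the same side of 0. An exact sign-flip test of 3 libraries cannot go below p = 0.25, so these small p-values rest on the spread pooled over all genes. Pooling adds nothing on the spread of ANXA2 itself, whose 3 counts enter every ratio of the fit. The p-values therefore depend on the gene set over the others and may be too small. For ANXA2 and S100A10 the limma adjusted p was 0.00018 from the side of ANXA2 and 1.4e-06 from that of S100A10.

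**Figure D2:**
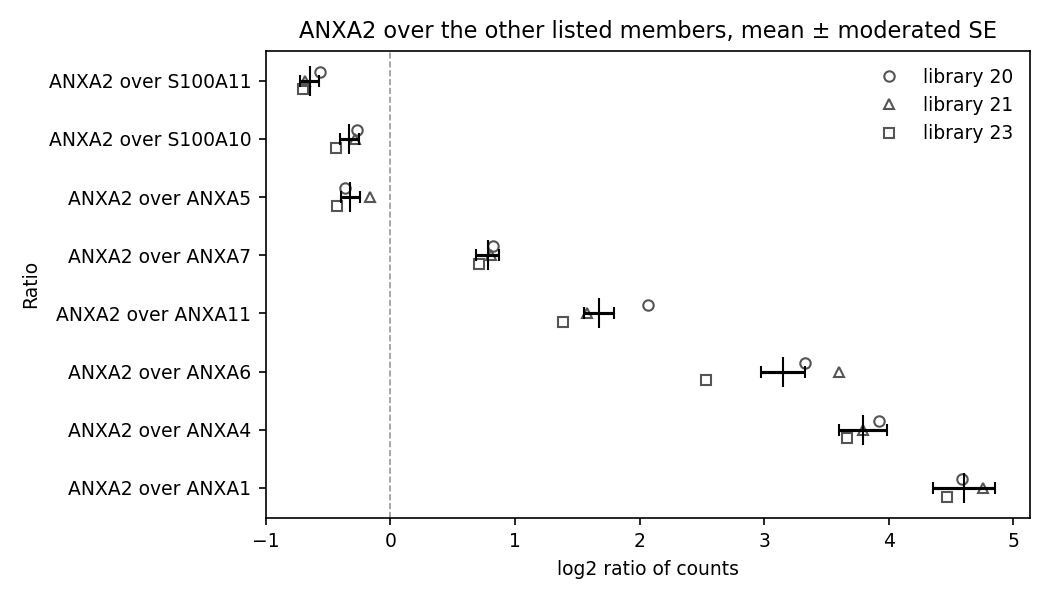
Log2 ratio of ANXA2 counts over those of each other listed member, with 1 symbol for each library and the mean ± moderated SE in black. The ratios over S100A11, S100A10 and ANXA5 lie left of 0 in all 3 libraries, and those over the other 5 annexins lie right of it.

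S100A10 was higher than 6 of the other 8 members, lower than S100A11 and not told apart from ANXA5. In the fit of S100A10 over every gene it was higher than 93.8% of genes and lower than 5.17%. The log2 ratio of S100A10 over ANXA5 was -0.10, 0.12 and 0.00 in libraries 20, 21 and 23, with a mean of 0.01 ± 0.056 SE (limma adjusted p = 0.89). Per 1000 bases of the longest transcript it was 0.56 (limma adjusted p = 9.6e-07), a call that counts per gene did not give.

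In order of level the genes ran S100A11, S100A10, ANXA5, ANXA2, ANXA7, ANXA11, ANXA6, ANXA4 and ANXA1, and 6 of the 8 steps passed the threshold. The order and the pairs were taken from the same counts that were tested. The direction of each step was thus set beforehand, and the tests do not bear on it. S100A11 exceeded S100A10 by a log2 ratio of 0.32 ± 0.070 SE (limma adjusted p = 6.3e-06). Tested from the side of ANXA5, the step to ANXA2 was 0.32 ± 0.11 SE (limma adjusted p = 0.0024). That call was lost without library 23, where it was 0.27 with a limma adjusted p of 0.15 (0.00012 from the side of ANXA2), and without the variance trend (limma adjusted p = 0.066). ANXA7 exceeded ANXA11 by 0.89 ± 0.11, ANXA11 exceeded ANXA6 by 1.48 ± 0.22 and ANXA4 exceeded ANXA1 by 0.81 ± 0.23 (limma adjusted p = 1.0e-07, 3.5e-11 and 0.0015). ANXA6 over ANXA4 was 0.64 ± 0.32 SE and missed the threshold (limma adjusted p = 0.063). It passed without library 21 (0.86, limma adjusted p = 0.030), and, in a fit chosen after seeing the data that took each gene's variance from its own CPM, at a limma adjusted p of 0.010. The share of all tested genes below the upper gene of each step was 95.1% for S100A11, 93.2% for ANXA5, 85.9% for ANXA7, 73.2% for ANXA11, 41.7% for ANXA6 and 33.7% for ANXA4.

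Per length the order among the lower genes changed, because the longest transcripts run from 594 bases for S100A11 to 6965 bases for ANXA11. On that scale ANXA2 stayed below S100A11 (log2 ratio -3.22) and ANXA5 (-1.32), and above ANXA7 (0.26), ANXA11 (2.66), ANXA6 (2.71), ANXA4 (4.12) and ANXA1 (3.93). ANXA11 over ANXA6 was then 0.05 (limma adjusted p = 0.83) and ANXA6 over ANXA4 1.41 (limma adjusted p = 3.8e-05). ANXA4 over ANXA1 turned to -0.19 without passing the threshold (limma adjusted p = 0.29).

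The upper members stood high among all genes of the table, and the lowest stood near its middle. S100A11 ranked 511, S100A10 654, ANXA5 657 and ANXA2 853 of 17595, so that all 4 were among the top 4.85% of genes. ANXA7 ranked 1452 and ANXA11 2411. ANXA6 ranked 5063, ANXA4 6629 and ANXA1 8390, the last at 47.7% of the way down the table. Their median was 121 CPM, against 7.16 CPM over all genes with a row, and 8 of the 9 averaged at least 10 CPM, against 44.6% of all genes. All 9 had a count in each library, against 72.6% of all genes. The genes nearest to ANXA2, by the log2 ratio of mean CPM over 3 libraries, were TECR at 209.4 and MRPS26 at 209.4 CPM above it and PDHA1 at 208.6 and PPP4C at 208.0 CPM below it. Around S100A10 they were PPP2R1A at 262.7 and RARS at 262.4 CPM above it and CWC15 at 261.7 and MYL12B at 261.3 CPM below it. Set against the spiked control RNAs, ANXA2 came to 109 ± 4.44 molecules per cell and S100A10 to 137 ± 7.11, with 171 ± 2.22 for S100A11, 137 ± 15.0 for ANXA5 and 4.32 ± 0.50 for ANXA1 (SD, n = 3). This scale takes cell RNA and spikes as equally captured, which was not tested.

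**Figure D3:**
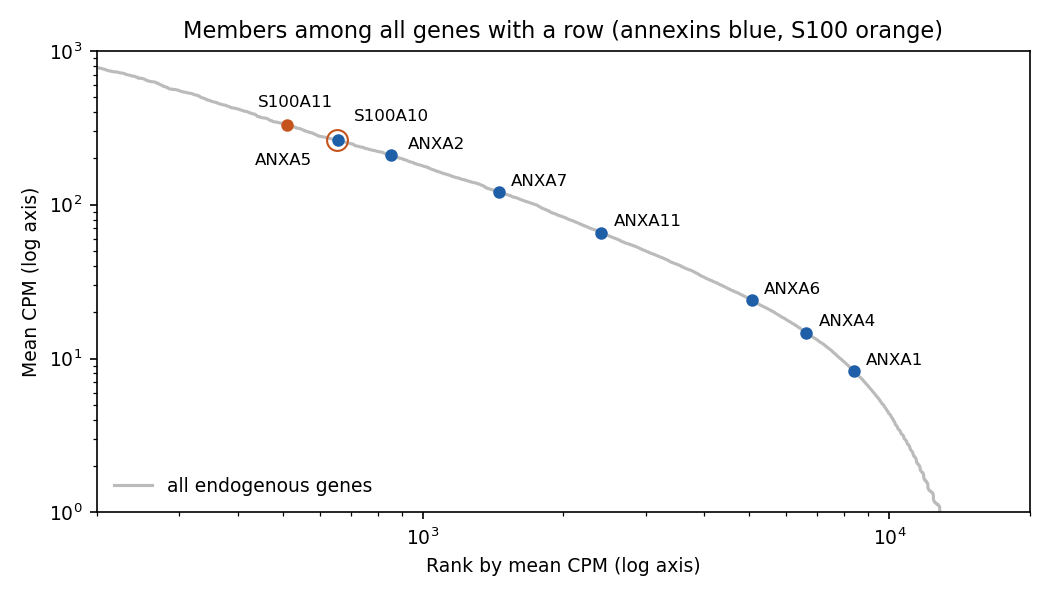
Mean CPM against rank for all endogenous genes as a grey line, both on log axes that leave out the very highest and lowest genes, with the members as points and S100A10 as an open ring around ANXA5. The top 4 members lie between ranks 511 and 853, and ANXA1 lies at rank 8390.

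None of the 9 members was called as differing between libraries (exact binomial test per pair of libraries, 2-sided, adjusted over all genes and 3 pairs). Of all 11424 genes tested 0.56% were called, so no call among 9 genes is the usual outcome. Of 27 member tests 4 had an unadjusted exact p under 0.05, against 6.94% of all tests. They were ANXA6 with 23 counts in library 21 against 51 in library 23 (exact p = 0.0099, adjusted p = 0.48), ANXA11 in library 20 against 21 and 23 (exact p = 0.047 and 0.020), and ANXA5 in library 20 against 21 (exact p = 0.024). With a chi-square test, edgeR or DESeq2 totals or spike totals the number of members called was also 0, and 4 or 5 tests had an unadjusted p under 0.05.

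The spread of the members between libraries followed no single pattern. S100A10 varied by a coefficient of variation of 1.17%, where its counts alone would give about 5.14%. ANXA2 varied by 6.84%, against 5.76% from counting, S100A11 by 4.77%, against 4.59%, and ANXA5 by 8.47%, against 5.16%. ANXA6 had the widest spread at 33.8%, against 17.5% from counting, and ANXA11 had 18.0%, against 10.3%. The 3 values of ANXA4 lay within 2.89%, although its 64 pooled counts would give 21.7%. With 3 libraries a coefficient of variation is itself poorly known, and none of these was tested beyond the exact test above.

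**Figure D4:**
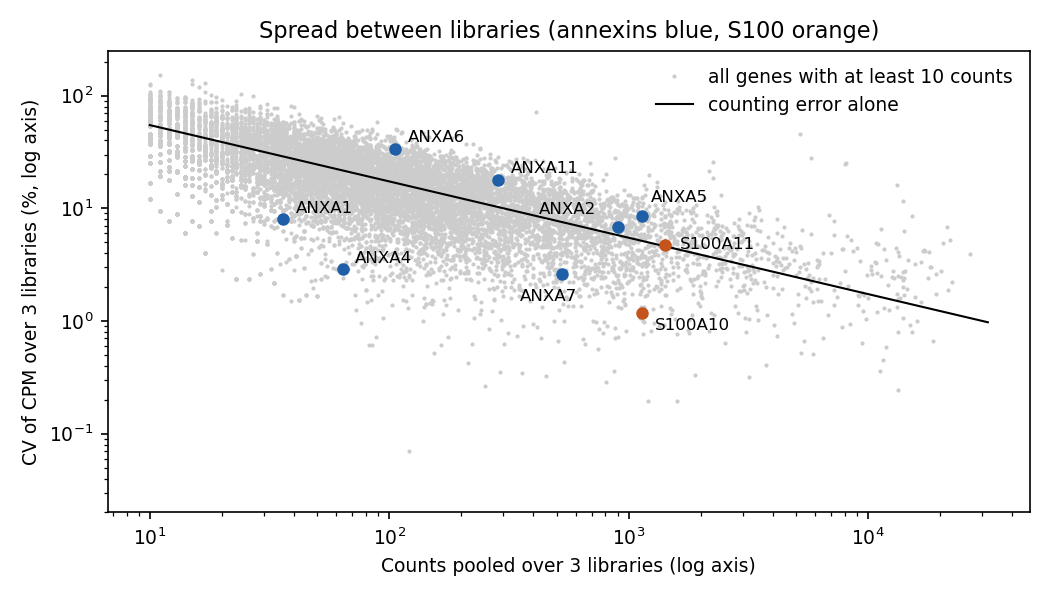
Coefficient of variation of CPM over 3 libraries against pooled counts, on log axes, for 11424 genes with at least 10 counts in grey and the members as points. The line is the spread from counting error alone; ANXA6, ANXA11, ANXA5 and ANXA2 lie above it, S100A11 lies on it, and S100A10, ANXA7, ANXA4 and ANXA1 lie below it.

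Of the other annexins and S100 genes with a row, all but S100A13 had at most 4.79 CPM on average, and nothing can be said of those with no row. Of 7 further annexin names 2 had a row, named here after their values were seen: ANXA3 with 4, 4 and 3 counts in libraries 20, 21 and 23, and ANXA9 with 1 count in each. Of 18 further S100 names 6 had a row, and S100A13, which takes part in the release of growth factors that lack a signal peptide, was the only one to reach 10 CPM. It had 26, 29 and 28 counts and averaged 19.2 ± 2.28 CPM (SD, n = 3). S100A13 overlaps S100A1 on the opposite strand, so their split is uncertain as well. S100A1, S100A4 and S100A16, chosen after their values were seen, had 21, 15 and 3 pooled counts, and S100A2 and S100A14 had 1 each. ANXA2 had 284 to 325 counts per library, against 1 count in each for its processed copy ANXA2P2, which could share its reads. The 4 genes of both lists with at least 10 pooled counts were all below ANXA2 and below S100A10, as were most genes tested.

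Among proteins that bind annexins or S100 proteins, SRI was the one not told apart from S100A10, and none was level with ANXA2 by the test. Of 13 names 8 had a row and 7 averaged at least 10 CPM, against 44.6% of all genes with a row. All 8 were tested: 2 were above ANXA2 and 6 below, and 1 was above S100A10, 6 below and 1 not past the threshold. Of all genes tested, 6.53% were above ANXA2 and 91.6% below it, and 5.17% were above S100A10 and 93.8% below it. CACYBP, which binds S100A6 and takes part in ubiquitination, was the highest at 675 ± 42.6 CPM, and ANXA2 over CACYBP was -1.69 (log2 ratio, limma adjusted p = 6.7e-21). SRI, or sorcin, a penta-EF-hand protein that binds annexin A7, had 437, 343 and 397 counts, or 270.2 ± 22.4 CPM. ANXA2 over SRI was -0.37 (limma adjusted p = 3.7e-05), whereas S100A10 over SRI was -0.04 (limma adjusted p = 0.47). PDCD6, or ALG-2, a calcium sensor that binds annexins A7 and A11, stood at 175.5 ± 3.51 CPM, and SUGT1, a co-chaperone that binds S100A6, at 116 ± 12.7 CPM. AHNAK, a giant scaffold that binds the annexin A2 and S100A10 tetramer, was named after its value was seen: it had 10, 5 and 4 counts, or 4.37 ± 2.16 CPM. FPR1 and FPR2, receptors of annexin A1, had no row.

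Some EF-hand proteins of other families reached higher levels than either S100 gene. All 15 reported of that list averaged at least 10 CPM, against 44.6% of all genes with a row, and their median was 111 CPM. Of the 15, 3 were above ANXA2, 11 below and 1 not past the threshold. Against S100A10, 2 were above, 12 below and 1 not past the threshold. Over all genes tested these shares were 6.53% above and 91.6% below ANXA2, and 5.17% above and 93.8% below S100A10. MYL6, a myosin light chain, had 920.3 ± 45.3 CPM, and CALM2, which encodes the calcium sensor calmodulin, had 740.0 ± 14.2 CPM. PEF1, the partner of PDCD6, had 268 ± 4.49 CPM, close to S100A10 (log2 ratio of S100A10 over PEF1 -0.03, limma adjusted p = 0.54). CALM3, which also encodes calmodulin, was the one not past the threshold against ANXA2 (log2 ratio of ANXA2 over CALM3 -0.11, limma adjusted p = 0.20).

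Genes of membrane repair and of the plasminogen system, in both of which annexin A2 is known to take part, were lower than the pair. Of 15 membrane repair names 13 had a row and 8 averaged at least 10 CPM, against 44.6% of all genes with a row. The median over the 13 was 15.7 CPM. All 11 that were tested lay below both ANXA2 and S100A10, as did 91.6% and 93.8% of all genes tested, so the count is near that of genes in general. CAPNS1, the small subunit of the calpain proteases, led at 72.2 ± 18.8 CPM, before the ESCRT ATPase gene VPS4A at 62.0 ± 5.53 CPM, the calpain gene CAPN2 at 35.0 ± 1.53 CPM and CAPN1 at 21.6 ± 4.90 CPM. Of 6 plasminogen system names 4 had a row, and the 3 tested were below ANXA2 and S100A10, which again is what most genes were. PLGRKT, a plasminogen receptor, had 60.2 ± 1.15 CPM, PLAT, the tissue plasminogen activator, 22.0 ± 3.55 CPM, and PLAUR, the urokinase receptor, 13.2 ± 2.84 CPM.

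**Figure D5:**
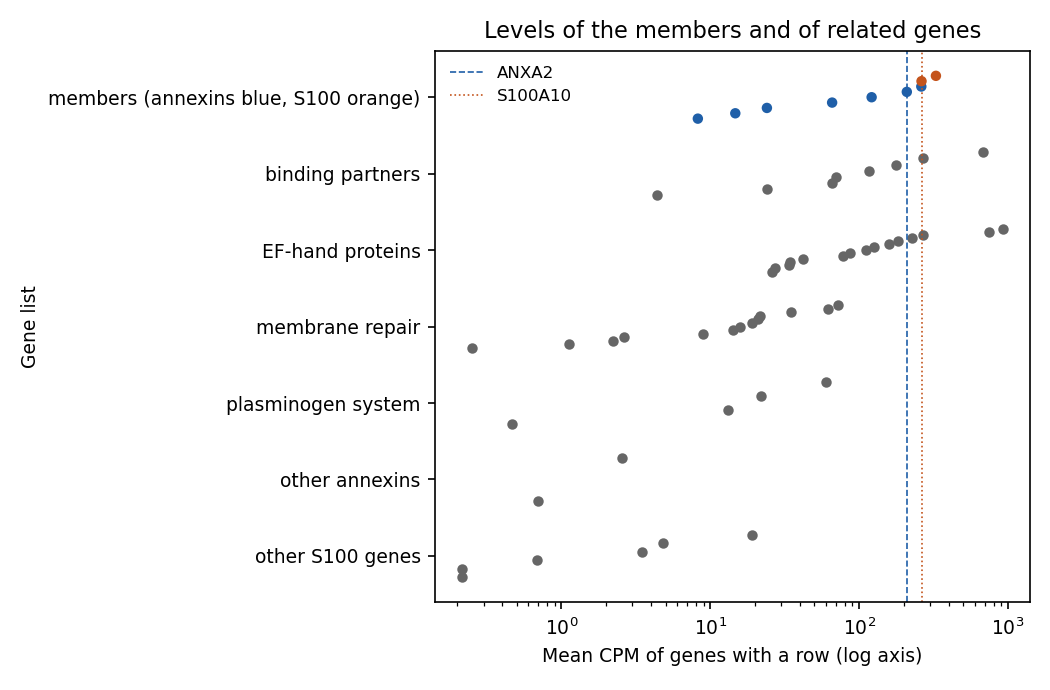
Mean CPM on a log axis of each gene with a row, by list, with the members on top, and dashed and dotted lines at ANXA2 and S100A10. Genes of the membrane repair and plasminogen lists lie left of both lines, while CACYBP, MYL6 and CALM2 lie far to the right.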

How the data were processed

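RNA 5′ ends were counted per gene in 3 HEK293 libraries, and the authors deposited raw counts with no normalization. The submitters' processing notes name STAR 2.4.0a, cutadapt 1.2.1 and the build hg19 (GRCh37). How genes were counted, the annotation, the strand rule and any collapsing of molecular identifiers were not found in the labels, so counts may be of reads or molecules. The table has 17675 rows, 80 of them spikes, which took 3.49% to 3.85% of the counts. The members and lists were chosen with earlier results of these data known.

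For each listed member, the per-library log2 ratio of counts (pseudocount 0.5) over every gene with at least 10 pooled counts was tested with limma 3.58.1 (moderated one-sample test, trend), Benjamini-Hochberg adjusted over all genes at 0.05. The spread of the member set over every gene, whether higher or lower than that gene, enters all ratios of its fit. Libraries were compared with an exact binomial test on endogenous totals, covering counting error only. Both tests were run on simulated counts, where most genes set 2-fold apart had to be called. For the ratio test no limit was set on calls of genes at equal level, so this check does not bear on small ratios. Named genes are the members, up to 4 genes per list with at least 10 CPM by level, and 2 genes on each side of ANXA2 and S100A10 in mean CPM. Genes were matched by symbol, and CAVIN1 by its older name PTRF. A gene of the EF-hand list is not reported here, and its list was counted without it. Transcript lengths were known for 81.0% of genes (GENCODE v29). Alternatives covered pseudocounts of 1 and 0.1, filters, trend, ANXA2 with its processed copies, length, totals from edgeR 4.0.16 and DESeq2 1.42.0, and each library left out in turn. R 4.3.3 and Python 3.11.15 with scipy 1.17.1 were used.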

Additional observations from a re-analysis of the deposited data

How the results depend on the processing

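The log2 ratio of ANXA2 over S100A10 and the numbers of members past the threshold against ANXA2 and against S100A10, in order of level and between libraries stayed within 1.5 times or on the same side of the threshold under all alternatives run. Of 161 recomputed gene ratios 152 kept their call, 4 lost it, 4 gained one and 1 turned: ANXA4 over ANXA1 was -0.19 per 1000 bases of the longest transcript, by the length of the transcripts alone. With at least 100 pooled counts ANXA4 and ANXA1 could not be fitted. Without library 21, ANXA6 over ANXA4 passed, and without library 23, ANXA5 over ANXA2 did not; the cause was not tested. The number of all genes differing between libraries was 64, against 91 with edgeR totals, 114 with DESeq2 size factors, 250 with spike totals, 92 with at least 100 pooled counts, and 8 without library 23, 42 without library 20 and 59 without library 21; no member was among those called in any of these. With spikes in the totals, mean CPM fell for every listed member, for example from 328 to 315 for S100A11 and from 209 to 201 for ANXA2. The fall went beyond 1 SD only for S100A10 (252), ANXA7 (117) and ANXA4 (14.2). These had the smallest coefficients of variation of the members, 1.17%, 2.61% and 2.89%. No paired analysis was possible because there is 1 group. At 36 to 106 pooled counts for ANXA1, ANXA4 and ANXA6, depth limits what could be seen between libraries.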
